A study of Homo sapiens with 30 samples.

Results

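The genes described here are DISP1, ARAP2, ATP7A, SOWAHA, USP11, PEAK1, URB1, MGAT5, VWA5A and TMTC2, 10 of the 39359 genes of the deposited count table. They were chosen from measured values of these libraries, because the difference between p53 TM and wild type p53 at 24 h was unlike that at 6 h. H1299 cells, a human lung carcinoma line without p53, were transfected transiently with 1 of 4 plasmids and sorted for GFP, 6 h or 24 h later, before total RNA was sequenced. The pGFP plasmid expresses GFP alone, and the others express GFP together with wild type p53 (WT), with the RW mutant p53, or with p53 from a template strand that bears O6-methylguanine (O6-meG) at 1 site. The fifth group, p53 TM, carried the O6-meG plasmid and was given 10 µM O6-benzylguanine (O6-bzG) ahead of transfection, which inactivates the repair protein AGT. Tetracycline-dependent promoters drive the genes on these plasmids, which are not known to replicate in mammalian cells, so p53 is ectopic in every group that has it. Only p53 TM received O6-bzG, and it is not stated whether the other groups received its solvent. Each vector has 3 replicates at each time, given as biological triplicates of 1 cell line, and all 10 genes passed the filter on low counts that kept 21335 genes.

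O6-methylguanine pairs with uracil as well as cytosine when RNA polymerase reads past it, and a cell that cannot repair the lesion then makes a mixture of normal and altered transcripts from an unmutated gene, which is called transcriptional mutagenesis (TM). p53 is a transcription factor that switches on genes such as CDKN1A and MDM2 by binding near them, while most genes that fall when p53 is active are thought to do so indirectly, through the p21 protein and the repressor complexes of the cell cycle. The 10 genes were not chosen by a pathway. Those other than SOWAHA and VWA5A act in hedgehog release, copper transport, ribosome assembly, protein glycosylation, the cytoskeleton and ubiquitin removal.

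The count totals ran from 32302699 to 71950532 reads a library (median 44424643). Titles of 2 libraries, both replicate 2 at 6 h, begin with the name of 1 group (TM in one, O6-meG in the other) and give the other group in parentheses, and the genotype field follows the parentheses. These 2 libraries were left without a group, so that 28 libraries entered the tests and p53 O6-meG and p53 TM at 6 h have 2 libraries each. CDKN1A, which encodes p21, had 50.1 CPM (read counts scaled to the library total with edgeR's TMM factors) in the library whose title begins with TM and 249.6 CPM in the one that begins with O6-meG. The libraries with a group gave 57.9 and 65.8 CPM for TM, 260.6 and 268.6 CPM for O6-meG, 242.3 to 262.2 CPM for WT and 34.1 to 43.6 CPM for pGFP at that time. At 24 h CDKN1A had 44.6 to 50.2 CPM in pGFP, 44.8 to 50.5 CPM in RW, 289.3 to 422.0 CPM in TM, 517.9 to 780.2 CPM in O6-meG and 513.0 to 787.8 CPM in WT. The keratins KRT8 and KRT18 and the mesenchymal markers VIM and CDH2 were high in all 30 libraries (lowest values 118.8, 292.0, 2255 and 46.8 CPM), whereas EPCAM and CDH1 of epithelia had at most 0.399 and 0.184 CPM. The lung lineage markers NKX2-1, SFTPC, SFTPB and NAPSA had at most 1.38, 0.110, 0.0538 and 0.836 CPM. Markers of blood (PTPRC, CD68), endothelium (PECAM1, VWF) and fibroblasts (COL1A1, COL3A1, DCN) reached at most 2.31 CPM.

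Sequence upstream of the start of transcription was found for 8 of the 10 genes, in 12 windows of 250 bases from RefSeq (GRCh38.p14), and none for ARAP2 and VWA5A. The windows of URB1, which was higher with p53 O6-meG, and of SOWAHA and MGAT5, which were lower, are shown because each lies wholly before the first annotated base of its gene. They are at chr21:32393013-32393262 on the minus strand, chr5:132813052-132813301 on the plus strand and chr2:134119685-134119934 on the plus strand, and are written 5′ to 3′ in the sense of the gene, with capitals for GGGCGG (a GC box) and CCAAT on either strand.
URB1: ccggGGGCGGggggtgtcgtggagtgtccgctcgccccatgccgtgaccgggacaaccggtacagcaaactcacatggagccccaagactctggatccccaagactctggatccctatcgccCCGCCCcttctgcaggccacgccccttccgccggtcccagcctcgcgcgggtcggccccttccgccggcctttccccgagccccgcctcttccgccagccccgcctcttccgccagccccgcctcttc
SOWAHA: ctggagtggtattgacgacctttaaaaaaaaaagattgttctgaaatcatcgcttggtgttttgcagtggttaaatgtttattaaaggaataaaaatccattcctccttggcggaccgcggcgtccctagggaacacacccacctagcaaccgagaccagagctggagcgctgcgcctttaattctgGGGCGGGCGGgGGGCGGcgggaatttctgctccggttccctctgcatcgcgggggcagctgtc
MGAT5: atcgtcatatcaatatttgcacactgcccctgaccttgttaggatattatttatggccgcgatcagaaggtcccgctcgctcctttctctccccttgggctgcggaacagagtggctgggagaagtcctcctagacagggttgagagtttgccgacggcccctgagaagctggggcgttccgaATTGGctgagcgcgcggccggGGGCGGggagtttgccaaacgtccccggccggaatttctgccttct

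A GC box stood in 7 of the 12 windows, those of DISP1, MGAT5, PEAK1, SOWAHA and URB1, against 42.6% of all 35116 RefSeq windows of this length. The DISP1 windows at chr1:222814789-222815038 and chr1:222814831-222815080 overlap and share their GC boxes, so the 7 count some sequence more than once. In the SOWAHA window 2 of the 3 matches overlap each other. CCAAT was found in 3 windows (DISP1, MGAT5 and USP11; 32% of all windows) and TTTGAA, the core of an element found in promoters of cell cycle genes, the CHR, in 2 windows (DISP1 and MGAT5; 13.3% of all). Both TTTGAA matches and the CCAAT of DISP1 lay in windows inside the annotated gene, at chr1:222928174-222928423 and chr2:134253822-134254071. The MGAT5 window shown above and the other DISP1 windows held 0 TTTGAA. The p53 half-site was found in 0 of the 12 windows (5.57% of all) and TATAAA in 0 (10.7% of all), on either strand. These are letters in a window, and no binding was measured in these libraries.

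At 6 h the group means of the 10 genes lay closer together than at 24 h. WT and TM libraries chose the genes, so values with these groups restate that choice and are a description without a test. The same ratios were not computed over all genes. The ratio of the highest to the lowest group mean at 6 h was between 1.07 (URB1, ATP7A) and 1.36 (SOWAHA), and at 24 h between 1.40 (MGAT5) and 3.85 (SOWAHA). At 24 h WT and O6-meG stood on one side and pGFP and RW on the other for each of the 10 genes, with 8 genes lower and 2 genes (DISP1 and URB1) higher in the cells with WT or O6-meG. The TM mean lay on the side of pGFP and RW for each gene, beyond the pGFP mean for ATP7A and between the pGFP and O6-meG means for the other 9.

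**Figure D1:**
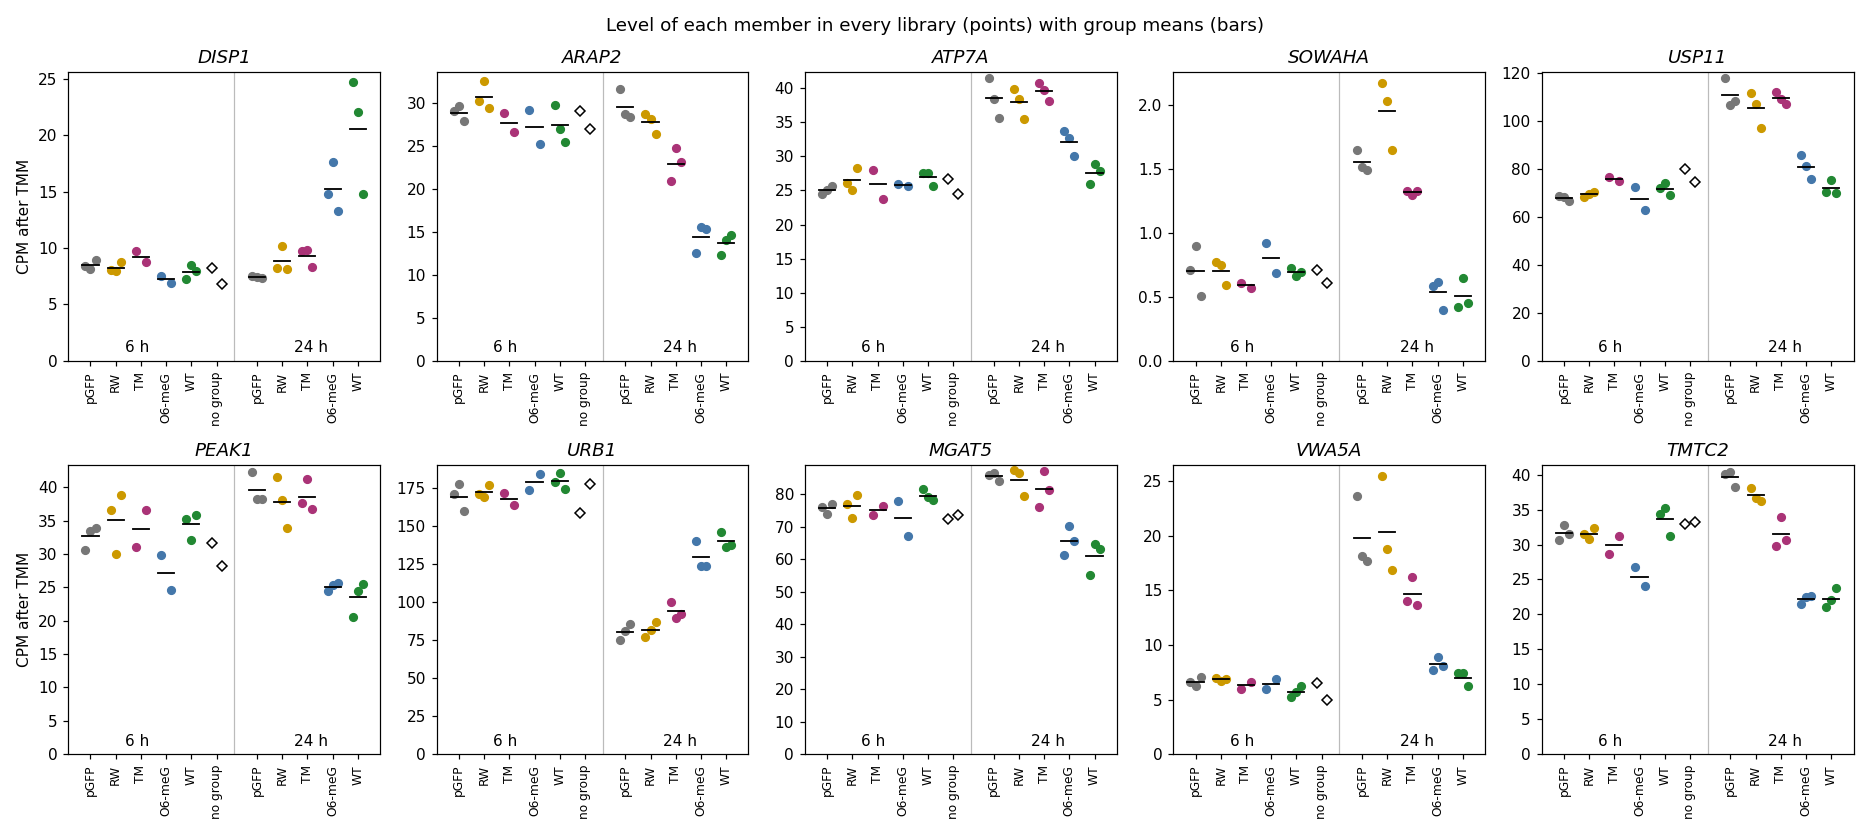
CPM after TMM scaling of each gene in each of the 30 libraries (points), by vector at 6 h and 24 h, with the group mean as a bar. Open diamonds are the 2 libraries at 6 h without a group. At 6 h the highest point of a gene is between 1.16 (URB1, 158.8 to 184.7 CPM) and 1.83 (SOWAHA) times its lowest. At 24 h the O6-meG and WT points lie apart from the pGFP points for all 10 genes. For WT, which chose the genes, 23.9% of all genes tested lie apart above pGFP and 19.7% below.

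The values that chose the genes are those of TM against WT. With the 2 conflicting libraries placed by the genotype field, the difference of TM against WT, 24 h minus 6 h, had an adjusted p under 0.05 in 14 of 20875 genes (0.0671%; 0.0527% higher and 0.0144% lower), and 10 of the 14 are the genes described here. The rest of the 14, at ranks 1, 2, 6 and 14 by p, are not described here. The last of the 10 was TMTC2, with a difference of 0.61 on the log2 scale and an adjusted p of 0.047 by edgeR. The first gene outside the threshold was PFKFB3, with −0.50 and 0.051. With both libraries left out, 310 genes (1.45% of those tested; 1.27% higher and 0.178% lower) passed the same limit, and the 10 genes lay between rank 44 (DISP1) and rank 198 (VWA5A) by p. With both placed by the start of the title, 513 genes (2.46%, with 2.07% higher and 0.383% lower) passed, and the 10 genes lay between rank 58 and rank 232. The CDKN1A and MDM2 levels of the 2 libraries were nearer to this placement than to that by the genotype field. How many genes pass thus turns on where the 2 libraries are placed, whereas the values of these genes moved little: the difference for DISP1 was −1.24, −1.37 and −1.32 in the order of the fits above, and that for URB1 −0.51, −0.48 and −0.45.

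TM against WT at 6 h gave log2 differences from −0.23 (SOWAHA) to 0.22 (DISP1) over the 10 genes, and at 24 h from −1.14 (DISP1) to 1.36 (SOWAHA), as a description without a test. WT against pGFP at 6 h was likewise close to 0, between −0.22 (VWA5A) and 0.10 (ATP7A). These values restate the choice of the genes, and for TMTC2 TM against WT was −0.17 at 6 h (95% interval −0.33 to −0.01).

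The comparison of p53 O6-meG with pGFP contrasts no WT or TM library, although those libraries share the filter, scaling and spread of the fit, and it asks whether p53 from the lesion-bearing template, in cells with active AGT, moved the same genes. At 24 h all 10 genes differed from pGFP (quasi-likelihood test of edgeR, p adjusted over all genes tested, of which 29.5% differed): 8 were lower, where 11.3% of all genes were, and 2 were higher, where 18.1% were. In each of the 10 genes the 3 O6-meG libraries lay wholly outside the 3 pGFP libraries, 2 above and 8 below, against 21.8% and 16.2% of all genes tested. At 6 h the libraries did not overlap for 4 genes, with ATP7A above (25.2% of all genes tested) and DISP1, PEAK1 and TMTC2 below (15.1%). The median log2 fold change of the 10 genes at 24 h was −0.55, and that of all genes tested 0.01. At 6 h the same comparison called 1 of the 10, TMTC2, lower, where 0.53% of all genes tested were lower and 4.32% higher (4.85% in all). The change of this comparison from 6 h to 24 h was called for 7 genes, 5 toward lower values (2.22% of all genes tested) and 2 toward higher (4.1%, and 6.31% in all). These tests leave out the replicate number, although same-numbered libraries deviated together in 30 of 30 pairs at 24 h and 19 of 23 at 6 h. It was also entered as a block at both times. With this block 9 genes were called for the change, ATP7A (−0.30, adjusted p = 0.039 by edgeR) and MGAT5 (−0.30, adjusted p = 0.017 by edgeR) in addition. Of the 21335 genes tested 3925 were then called for it, and 1347 without the block. Since RNA was pooled over sorted cells, fewer cells with a transcript and less of it per cell cannot be told apart in any of these values.

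**Figure D2:**
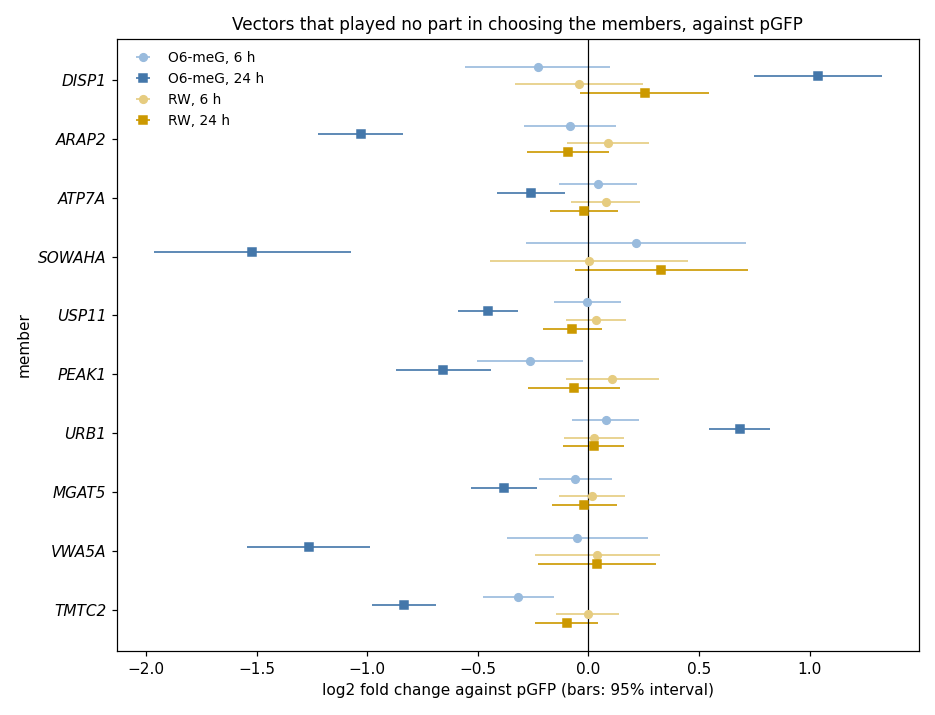
Log2 fold change against pGFP of p53 O6-meG and RW mutant p53 at 6 h and 24 h for each gene, with 95% intervals (horizontal bars). The O6-meG values at 24 h run from −1.52 (SOWAHA) to 1.04 (DISP1), and the intervals of RW include 0 for every gene at both times.

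URB1 and DISP1 were the genes that were higher. URB1 (ENSG00000142207.6, chromosome 21, 32311018 to 32393012, minus strand) encodes a nucleolar protein needed to assemble the large ribosomal subunit. At 6 h its 15 libraries lay between 158.8 and 184.7 CPM. At 24 h it had 75.0, 81.2 and 85.6 CPM in pGFP and 77.3, 81.7 and 87.0 CPM in RW. TM at that time gave 100.02, 89.8 and 92.5 CPM, O6-meG 140.4, 124.1 and 124.1 CPM, and WT 146.0, 136.6 and 137.4 CPM. The level was thus far lower than at 6 h in pGFP and RW and less so in the other groups, and the TM libraries stood above all pGFP libraries and below all O6-meG libraries. Against pGFP at 24 h the log2 fold change of O6-meG was 0.68 ± 0.07 (SE; 1.61-fold, adjusted p = 1.3e-08, edgeR quasi-likelihood test), and its change from 6 h was 0.61 ± 0.10 (adjusted p = 0.0011 by edgeR). URB1 was below its 6 h level in both groups: pGFP at 24 h against 6 h was −1.07 ± 0.07 (adjusted p = 5.2e-11 by edgeR), and O6-meG over the same time −0.47 ± 0.07, given without a test.

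DISP1 (ENSG00000154309.8, chromosome 1, 222815022 to 223005995, plus strand) encodes a membrane protein that releases lipid-modified hedgehog ligands from the cells that make them. It lay between 6.81 and 9.74 CPM in the 15 libraries at 6 h. At 24 h pGFP gave 7.49, 7.47 and 7.34 CPM, RW 8.26, 10.2 and 8.14 CPM, and TM 9.76, 9.78 and 8.33 CPM. O6-meG gave 14.8, 17.6 and 13.3 CPM and WT 24.7, 22.05 and 14.8 CPM. Unlike URB1, DISP1 stood above its own 6 h range in the O6-meG and WT cells, with the WT libraries spread widely, while pGFP kept to the 6 h range and the 3 RW libraries all stood above those of pGFP. The log2 fold change of O6-meG against pGFP was 1.04 ± 0.14 at 24 h (2.05-fold, adjusted p = 2.1e-06, edgeR quasi-likelihood test), and −0.23 ± 0.16 at 6 h (adjusted p = 0.49 by edgeR). The change between the times was 1.27 ± 0.21 (adjusted p = 0.0011 by edgeR).

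Among the 8 lower genes, ARAP2 and TMTC2 had O6-meG and WT libraries at 24 h below all those of their 6 h time point. ARAP2 (ENSG00000047365.11, chromosome 4, 35948221 to 36244514, minus strand) encodes a GTPase-activating protein for Arf6 that acts at focal adhesions. Its 15 libraries at 6 h lay between 25.3 and 32.6 CPM. At 24 h it had 31.6, 28.7 and 28.4 CPM in pGFP and 28.7, 28.1 and 26.4 CPM in RW. In TM it had 20.9, 24.7 and 23.1 CPM, in O6-meG 12.5, 15.6 and 15.3 CPM and in WT 12.3, 14.1 and 14.6 CPM. The TM libraries formed a middle level of their own, overlapping neither pGFP nor O6-meG. O6-meG against pGFP was −1.03 ± 0.09 on the log2 scale at 24 h (51.0% lower, adjusted p = 3.6e-09, edgeR quasi-likelihood test), −0.08 ± 0.10 at 6 h (adjusted p = 0.72 by edgeR), and the change between the times was −0.95 ± 0.14 (adjusted p = 0.00047 by edgeR).

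TMTC2 (ENSG00000179104.8, chromosome 12, 82686880 to 83134870, plus strand) encodes an endoplasmic reticulum protein that transfers O-linked mannose to cadherins. At 6 h it had 30.6, 32.8 and 31.5 CPM in pGFP, 26.8 and 24.0 CPM in O6-meG, 28.7 and 31.2 CPM in TM, 31.5, 30.8 and 32.4 CPM in RW and 34.4, 35.2 and 31.3 CPM in WT. The O6-meG libraries were thus the lowest of that time, while those of WT were not low. The 2 libraries without a group had 33.0 and 33.2 CPM. O6-meG against pGFP at 6 h was −0.32 ± 0.08 (19.7% lower, adjusted p = 0.015, edgeR quasi-likelihood test). This call was lost with the 2 conflicting libraries placed by the start of the title (−0.18, adjusted p = 0.24 by edgeR) or by the genotype field (−0.18, adjusted p = 0.39 by edgeR), with every gene of at least 1 count tested (−0.33, adjusted p = 0.098 by edgeR), without pGFP replicate 2 (−0.29, adjusted p = 0.068 by edgeR) and without O6-meG replicate 3 (−0.24, adjusted p = 0.30 by edgeR).

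At 24 h TMTC2 had 40.1, 40.4 and 38.3 CPM in pGFP, 38.2, 36.6 and 36.3 CPM in RW and 29.7, 34.0 and 30.6 CPM in TM. O6-meG gave 21.5, 22.5 and 22.6 CPM and WT 21.0, 22.05 and 23.7 CPM. O6-meG and WT could not be separated, TM stood between them and pGFP with no overlap on either side, and the RW libraries lay just below those of pGFP. The log2 fold change of O6-meG against pGFP was −0.83 ± 0.07 (43.9% lower, adjusted p = 1.1e-09, edgeR quasi-likelihood test), and its change from 6 h −0.52 ± 0.10 (adjusted p = 0.0040 by edgeR).

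SOWAHA, VWA5A, ATP7A and USP11 rose from 6 h to 24 h in pGFP, and were lower with O6-meG than with pGFP at 24 h. VWA5A (ENSG00000110002.15, chromosome 11, 124115404 to 124147721, plus strand) encodes a protein with a von Willebrand factor A domain that has been described as a candidate tumour suppressor. It had between 4.99 and 7.07 CPM in the 15 libraries at 6 h. After 24 h it had 23.7, 18.1 and 17.7 CPM in pGFP and 25.5, 18.8 and 16.8 CPM in RW. TM gave 14.1, 16.2 and 13.6 CPM, O6-meG 7.67, 8.92 and 8.10 CPM, and WT 7.42, 7.40 and 6.21 CPM. In pGFP and RW the level was far above that of 6 h, in WT it stayed close to it, and TM lay between pGFP and O6-meG with no overlap. O6-meG against pGFP at 24 h was −1.27 ± 0.13 (58.4% lower, adjusted p = 4.7e-08, edgeR quasi-likelihood test) and the change from 6 h −1.21 ± 0.20 (adjusted p = 0.0011 by edgeR).

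SOWAHA (ENSG00000198944.5, chromosome 5, 132813302 to 132816786, plus strand), a gene of 1 exon that encodes an ankyrin repeat protein, was the least abundant of the 10, with 14 to 101 reads per library. At 6 h its 15 libraries lay between 0.505 and 0.924 CPM. At 24 h the values were 1.65, 1.52 and 1.49 CPM in pGFP and 2.17, 2.03 and 1.65 CPM in RW. Those of TM were 1.33, 1.30 and 1.32 CPM, those of O6-meG 0.586, 0.619 and 0.401 CPM and those of WT 0.425, 0.645 and 0.451 CPM. Every O6-meG and WT library was below every library of the other vectors. O6-meG against pGFP was −1.52 ± 0.22 at 24 h (65.1% lower, adjusted p = 4.5e-06, edgeR quasi-likelihood test), with the widest error of the 10 genes, and the change from 6 h was −1.73 ± 0.33 (adjusted p = 0.0023 by edgeR).

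ATP7A (ENSG00000165240.18, chromosome X, 77910690 to 78050395, plus strand) encodes the copper-transporting ATPase that is defective in Menkes disease. The level at 6 h was between 23.8 and 28.2 CPM in the 15 libraries. At 24 h it was 41.5, 38.4 and 35.5 CPM in pGFP, 39.8, 38.4 and 35.5 CPM in RW and 40.7, 39.7 and 38.1 CPM in TM. In O6-meG it was 33.7, 32.7 and 30.05 CPM and in WT 25.9, 28.8 and 27.8 CPM. TM could not be told from pGFP or RW, and O6-meG lay between these and WT. O6-meG against pGFP at 24 h was −0.26 ± 0.08 (16.4% lower, adjusted p = 0.010, edgeR quasi-likelihood test), the smallest of the 10 values. It was no longer called without pGFP replicate 1 (−0.20, adjusted p = 0.075 by edgeR), without O6-meG replicate 3 (−0.21, adjusted p = 0.059 by edgeR) or in a fit of only the groups compared (−0.27, adjusted p = 0.067 by edgeR). The change from 6 h, −0.30 ± 0.11, was not called (adjusted p = 0.12 by edgeR) without the block.

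USP11 (ENSG00000102226.9, chromosome X, 47232866 to 47248328, plus strand) encodes a deubiquitinase that takes part in the repair of DNA double-strand breaks. It lay between 62.7 and 79.8 CPM in the 15 libraries at 6 h. After 24 h it had 117.6, 106.4 and 108.0 CPM in pGFP, 111.7, 106.9 and 97.0 CPM in RW and 112.0, 109.1 and 107.0 CPM in TM. O6-meG gave 85.8, 81.0 and 75.7 CPM and WT 70.4, 75.2 and 69.9 CPM. As with ATP7A, TM kept to the level of pGFP and RW, and every O6-meG and WT library was below it. O6-meG against pGFP was −0.45 ± 0.07 at 24 h (26.9% lower, adjusted p = 5.4e-06, edgeR quasi-likelihood test). The change from 6 h was −0.45 ± 0.10 (adjusted p = 0.0068 by edgeR), and −0.35 without O6-meG replicate 1 at 6 h (adjusted p = 0.056 by edgeR).

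PEAK1 and MGAT5 had the smallest changes over time in pGFP among the lower genes other than ARAP2. PEAK1 (ENSG00000173517.10, chromosome 15, 77100656 to 77420144, minus strand) encodes a pseudokinase that serves as a scaffold at the actin cytoskeleton. Its 6 h libraries lay between 24.6 and 38.9 CPM, with both O6-meG libraries (29.8 and 24.6 CPM) below the 3 of pGFP (30.6, 33.5 and 33.8 CPM). At 24 h it had 42.2, 38.2 and 38.3 CPM in pGFP, 41.5, 38.1 and 33.8 CPM in RW and 37.6, 41.3 and 36.7 CPM in TM. O6-meG gave 24.4, 25.4 and 25.6 CPM and WT 20.6, 24.5 and 25.5 CPM. The gap between these levels and those of the other 3 vectors was wider than the spread within any of them. O6-meG against pGFP was −0.66 ± 0.10 at 24 h (36.5% lower, adjusted p = 1.8e-05, edgeR quasi-likelihood test) and −0.26 ± 0.12 at 6 h (adjusted p = 0.23 by edgeR), and the change between the times, −0.39 ± 0.15, was not called (adjusted p = 0.14 by edgeR).

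MGAT5 (ENSG00000152127.8, chromosome 2, 134119983 to 134454621, plus strand) encodes the Golgi enzyme that starts the β1,6 branch of N-glycans. At 6 h it was between 67.3 and 81.6 CPM. After 24 h it had 85.9, 86.6 and 84.2 CPM in pGFP, 87.4, 86.6 and 79.4 CPM in RW and 76.2, 87.3 and 81.4 CPM in TM. O6-meG gave 61.3, 70.2 and 65.5 CPM and WT 55.2, 64.8 and 63.3 CPM. TM overlapped pGFP and RW, and its lowest library was above the highest of O6-meG and of WT. O6-meG against pGFP was −0.38 ± 0.07 at 24 h (23.2% lower, adjusted p = 0.00017, edgeR quasi-likelihood test). The change from 6 h, −0.32 ± 0.11, had an adjusted p of 0.076 by edgeR and was called under 5 of 8 alternative settings other than the omission of libraries.

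RW mutant p53 was compared with pGFP to see whether the altered protein moved these genes by itself. At neither time was any of the 10 genes called by edgeR, and none had an unadjusted p under 0.05, where 0.00469% of all genes tested were called at each time and 1.02% (6 h) and 0.975% (24 h) had an unadjusted p under 0.05. DESeq2 called 0 of the 10 as well. At 24 h the fitted values ran from −0.10 (TMTC2, 95% interval −0.24 to 0.04) to 0.33 (SOWAHA, −0.06 to 0.72). DISP1 had 0.25 (−0.04 to 0.55), with its 3 RW libraries above the 3 of pGFP, as in 2.14% of all genes tested, and the 3 RW libraries of TMTC2 lay below, as in 1.96%. For the other 7 genes the 24 h intervals lay within −0.28 (ARAP2) and 0.30 (VWA5A). A change of the size seen with O6-meG was thus outside the interval of RW for each of the 10 genes.

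Most of these genes also differed between the times in cells without p53, which were harvested and sorted separately at each time. In pGFP at 24 h against 6 h, 6 genes were higher by edgeR, where 19% of all genes tested were, and URB1 was lower, where 22.3% were (41.2% in all). An unadjusted p under 0.05 was found for 8 of the 10 and for 48.6% of all genes. VWA5A rose by 1.57 ± 0.13 (2.97-fold, adjusted p = 4.4e-09 by edgeR), SOWAHA by 1.15 ± 0.20 (2.22-fold, adjusted p = 7.6e-05 by edgeR), USP11 by 0.71 ± 0.07 (adjusted p = 1.3e-08 by edgeR) and ATP7A by 0.62 ± 0.08 (adjusted p = 6.3e-07 by edgeR). Smaller rises were those of TMTC2, 0.32 ± 0.07 (adjusted p = 0.00055 by edgeR), and PEAK1, 0.28 ± 0.10 (adjusted p = 0.031 by edgeR). The call for PEAK1 was lost without pGFP replicate 1 at 24 h, replicate 1 at 6 h or replicate 2 at 6 h (0.23, 0.23 and 0.30). MGAT5 (0.18, adjusted p = 0.051 by edgeR), DISP1 (−0.19, adjusted p = 0.29) and ARAP2 (0.03, adjusted p = 0.79) did not pass the test. MGAT5 was called under 6 of 8 alternative settings, all but the block and the one that tests every gene with at least 1 count.

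**Figure D3:**
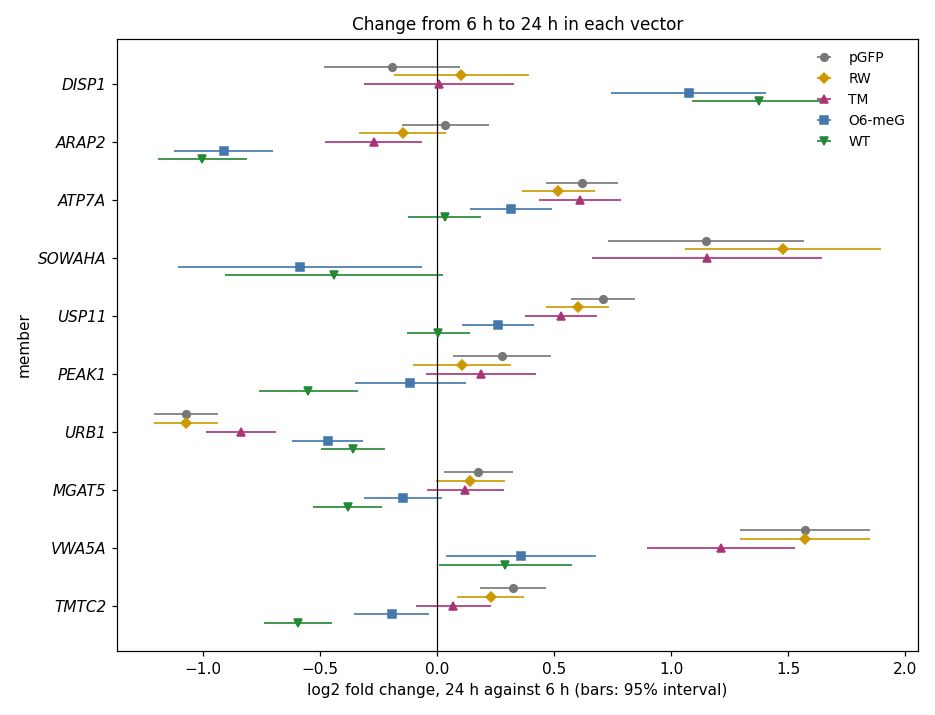
Log2 fold change from 6 h to 24 h within each vector for each gene, with 95% intervals (horizontal bars). For VWA5A pGFP and RW both lie at 1.57, and the values of O6-meG and WT lie to the left of both for the 8 lower genes and to the right for DISP1 and URB1.

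The same change within the other vectors is given without a test, since WT and TM libraries chose the genes. In RW the values were near those of pGFP, such as 1.57 for VWA5A and −1.07 for URB1. VWA5A changed by 1.21 in TM, 0.36 in O6-meG and 0.29 in WT. SOWAHA changed by 1.48 in RW, 1.15 in TM, −0.59 in O6-meG and −0.44 in WT, with a WT interval of −0.91 to 0.03 that includes 0. ATP7A changed by 0.61, 0.32 and 0.03 in TM, O6-meG and WT, and USP11 by 0.53, 0.26 and 0.00. ARAP2, for which pGFP gave 0.03, changed by −0.27 in TM and −0.91 in O6-meG. DISP1 changed by 0.01 in TM, 1.08 in O6-meG and 1.37 in WT.

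How far TM went toward O6-meG at 24 h is likewise a description, because TM libraries chose the genes. Taken as a share of the distance from the pGFP mean to the O6-meG mean in CPM, TM had gone 46.9% for TMTC2, 44.6% for VWA5A and 43.9% for ARAP2. It had gone 27.6% for URB1, 23.8% for DISP1, 23.2% for SOWAHA and 19.9% for MGAT5. PEAK1 and USP11 gave 7.31% and 4.34%, and ATP7A −16.3%. Single TM replicates changed the sign of 4 of these values: they ran from −8.44% to 47.1% for MGAT5, −11.9% to 19.9% for PEAK1, −4.36% to 12.3% for USP11 and −35.2% to 5.695% for ATP7A. The TM libraries lay wholly above those of pGFP for DISP1 and URB1 (16.3% of all genes tested) and wholly below for ARAP2, SOWAHA, VWA5A and TMTC2 (8.06%), and they overlapped for ATP7A, USP11, PEAK1 and MGAT5. The median of the 10 was 23.5%, and over the 3 TM replicates taken singly it was 34.8%, 21.98% and 21.7%. Over all genes called lower with O6-meG at 24 h the median share was 46.9%, and over those called higher 47.7%. In the same measure O6-meG had gone 57.9% (ATP7A) to 100.3% (TMTC2) of the distance from pGFP to WT.

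**Figure D4:**
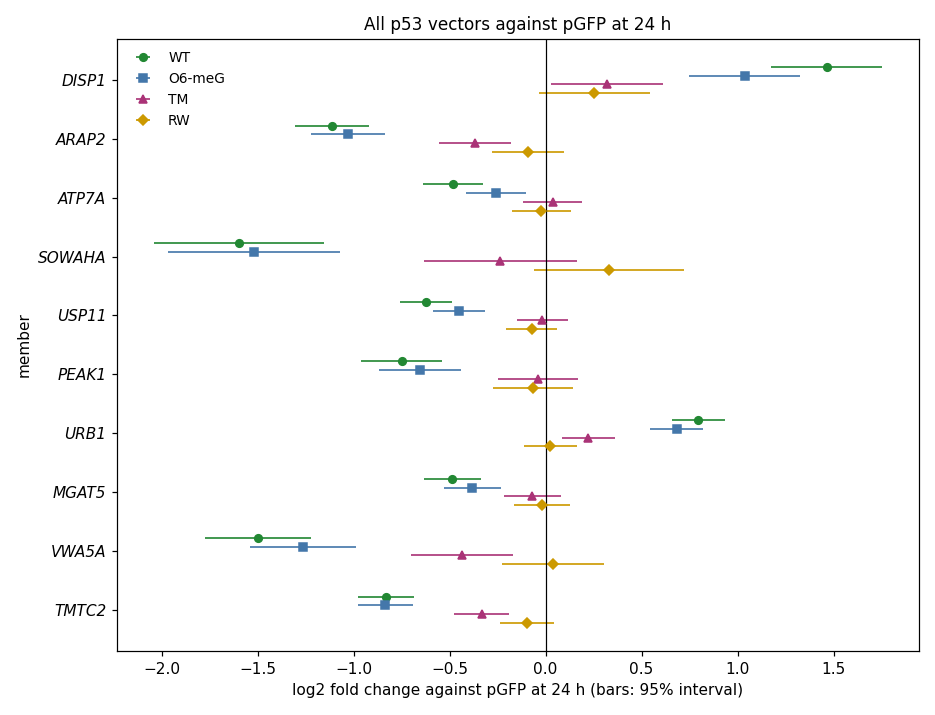
Log2 fold change against pGFP at 24 h of the 4 p53 groups for each gene, with 95% intervals (horizontal bars). TM (triangles) lies nearer 0 than O6-meG (squares) for each gene, and WT lies at 1.46 for DISP1 and −1.60 for SOWAHA.

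Genes that work with the members were counted from lists of their pathways. Of 18 hedgehog genes tested, 4 were higher and 2 lower with O6-meG at 24 h by edgeR (adjusted p under 0.05; 18.1% and 11.3% of all genes tested). They included HHAT, which attaches palmitate to hedgehog ligands (1.29 ± 0.12, adjusted p = 3.7e-09 by edgeR), and the ligand gene IHH, with 2 to 6 reads per pGFP library and 25 to 75 per O6-meG library. In pGFP over time 8 hedgehog genes rose and 0 fell (19% and 22.3% of all genes tested), led by SCUBE2 (1.32) and PTCH1 (0.96). Of 15 copper handling genes, 3 were higher, led by CCS, the copper chaperone of superoxide dismutase (0.55 ± 0.14, adjusted p = 0.0040 by edgeR), and ATP7A alone was lower. In pGFP over time 2 copper genes rose and 4 fell, SCO1 by 0.83.

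The ribosome assembly list had 5 of its 23 genes higher and 0 lower with O6-meG at 24 h (18.1% and 11.3% of all genes tested). URB1 and POLR1A, the largest subunit of RNA polymerase I (1.52 ± 0.13, adjusted p = 1.2e-09 by edgeR), had the smallest p. In pGFP over time all 23 were lower by edgeR, against 22.3% of all genes tested, with a median log2 fold change of −0.78 and POLR1B at −1.21. The fall of URB1 with time was thus shared by the whole list, whereas a higher level with O6-meG was called for 5 of its 23 genes, near the share of all genes tested. URB1 and POLR1A were the 2 genes of the list called for the change of O6-meG against pGFP between the times.

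Among 17 genes of N-glycan branching and trimming, 5 were higher and 3 lower with O6-meG at 24 h (18.1% and 11.3% of all genes tested). MGAT5B, the paralog of MGAT5, was higher with O6-meG (1.58 ± 0.16, adjusted p = 2.2e-08 by edgeR) while MGAT5 was lower, and the sialyltransferase gene ST3GAL4 was higher too (1.17). Of 10 O-mannosylation genes 3 were higher and 2 lower, and here the paralog TMTC3 was higher (1.46 ± 0.16, adjusted p = 5.8e-08 by edgeR) while TMTC2 was lower. In pGFP over time 19% of all genes tested were higher and 22.3% lower. Both lists were mixed there, with 4 higher and 4 lower in the first and 3 higher and 2 lower in the second. MAN2A1 fell by 0.55 there and MGAT5B rose by 1.40, while TMTC1 and TMTC2 were among the 3 that rose in the second.

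With O6-meG at 24 h 18.1% of all genes tested were higher and 11.3% lower. ARAP2 alone was lower among 21 genes for Arf proteins and their GTPase-activating proteins, of which 8 were higher, led by ARFGAP1 (1.08 ± 0.10, adjusted p = 6.4e-09 by edgeR). In pGFP over time 3 of the 21 rose (AGAP2 by 3.06) and 5 fell (ARFGAP2 by 0.50), where 19% and 22.3% of all genes tested did. Of 16 partners and paralogs of PEAK1, PEAK1 itself and ERBB2 were lower and 10 higher, among them EGFR (0.83) and the adaptor gene CRKL (0.52). In pGFP 4 of the 16 rose, ERBB2 (0.67) and SRC (0.75) with the smallest p, and 7 fell. Of 9 genes around USP11 and the repair of breaks, 2 were higher, the ubiquitin-specific proteases USP15 (1.16) and USP7 (0.58), and 3 were lower. Over time in pGFP 2 of them rose and 5 fell, USP7 by 0.56. The 6 paralogs of SOWAHA and VWA5A tested, these 2 included, were split, with 3 higher and 3 lower, and in pGFP over time 3 rose, VWA5B2 by 2.33, and 1 fell.

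At 6 h O6-meG against pGFP called 4.32% of all genes tested higher and 0.53% lower, and few genes of these lists. GIT1 (0.29) and ARFGAP3 (0.29) of the Arf list, CRKL (0.23) and USP15 (0.51) were higher, and TMTC2 lower, with 0 in the other 5 lists. The change between the times was called toward higher values in 4.1% of all genes tested and toward lower in 2.22%. For this change the counts of genes toward higher and lower values were 2 and 1 (hedgehog), 0 and 0 (copper), 3 and 0 (N-glycans), 1 and 1 (O-mannosylation), 4 and 1 (Arf), 3 and 0 (PEAK1 list), 2 and 2 (USP11 list), 2 and 0 (ribosome) and 0 and 2 (paralogs of SOWAHA and VWA5A). The genes with the smallest p besides the members were HHAT (1.07), ST3GAL4 (0.91), MGAT5B (0.98), TMTC3 (0.92), ARFGAP1 (0.74), EGFR (0.68), YES1 (0.68), BRCA1 (−0.69) and POLR1A (1.13). RW against pGFP called 0 genes of every list at both times.

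Per kilobase of annotated exons the members spanned a wide range, here as mean CPM per kb in pGFP at 6 h. URB1 (14.8), USP11 (13.3) and MGAT5 (8.64) were the most abundant, followed by TMTC2 (3.80), ARAP2 (2.32), PEAK1 (1.35) and VWA5A (1.05). ATP7A (0.891), DISP1 (0.651) and SOWAHA (0.202) were the least. Most are long genes: 8 of the 10 span more than the median of 27.4 kb over 20046 protein-coding genes of GENCODE v44, with a median of 165.3 kb, and SOWAHA (3.5 kb) and USP11 (15.5 kb) are the short ones. URB1, ATP7A and ARAP2 overlap genes of the opposite strand, MRAP, PGAM4 and ENSG00000247193, whose counts were at most 3, 13 and 2 reads per library.

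Over the 30 libraries the log2 CPM of the members were correlated as a description, since the libraries share vectors, times and replicate numbers. ATP7A and USP11 were most alike among the members (Pearson r = 0.95), MGAT5 ran with PEAK1 (0.93) and with TMTC2 (0.90), and URB1 ran against VWA5A (−0.97). DISP1 ran against ARAP2 (−0.90). Over all genes tested the most similar to DISP1 were PDCD1 (0.92) and SLC2A2 (0.92), to ARAP2 GPR19 and SASS6 (0.97 and 0.96) and to URB1 COL12A1 and MARCHF3 (both 0.98). SOWAHA was most like C4orf33 and CA2 (both 0.91), USP11 like PRX and LGMN (0.97 and 0.96) and VWA5A like JARID2 (0.97). CELF5 (0.94) was the next to ATP7A after USP11, RALGAPA2 (0.93) the nearest to PEAK1 followed by MGAT5, TBC1D2B (0.91) the second to MGAT5, and NEK1 (0.89) the second to TMTC2.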

How the data were processed

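RNA of 30 libraries was compared over 10 groups of vector and time. The authors aligned single reads to hg38 with STAR 2.5.3a, counted them on GENCODE v27 with featureCounts of Subread 1.5.2, and deposited raw read counts per gene, without normalization. Whether strand was used in counting is not given in the sources used here. A second deposited table, the raw counts divided by 1 factor a library, was not used.

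The 28 libraries with a group entered edgeR 4.0.16 (R 4.3.3): filterByExpr by group, TMM, 1 quasi-likelihood fit of all groups, and Benjamini-Hochberg adjustment over the 21335 genes tested. Called means an adjusted p under 0.05. Standard errors came from the estimate and its F statistic, and intervals cover 95%. Levels are CPM after TMM over all 30 libraries. Contrasts with WT or TM are given as descriptions; adjusted p-values of TM against WT between the times appear only as the values that chose the genes. The alternatives were DESeq2's size factors, DESeq2 1.42.0 (Wald test), a filter of 1 count in all or of 10 counts a library, fits of only the compared groups, a replicate block, both placements of the 2 conflicting libraries, and each library left out. The 10 genes and the lists were chosen with earlier results of these data known. Named besides the 10 genes are CDKN1A and MDM2, the 2 genes with the highest Pearson r to each of the 10 (log2 CPM, prior count 2; 1 of them is not reported here), and at most 2 called genes of each list with the smallest p in each comparison; PFKFB3 is named as the first gene outside the threshold, and the markers by their lists. CD3E has no value here.

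Gene positions and exon lengths are from GENCODE v44 (hg38), which named 38904 of 39359 genes. Same-numbered libraries deviated together at 24 h (30 of 30 pairs with a correlation over 0.1, 0.418 to 0.889), which pairs them. Of differently numbered pairs at that time 13 of 60 did. At 6 h 19 of 23 same-numbered pairs did (median correlation 0.395, lowest −0.262), against 7 of 44 differently numbered pairs (median −0.156). Most same-numbered libraries thus deviated together at 6 h too, but not all. Over 26 pairs within groups, chi-square per degree of freedom was 5.51 to 41.9, so no library repeated another of its group; pairs across groups and the 2 libraries without a group were not compared. The tests were first run on simulated counts. Totals of 32302699 to 71950532 reads put at least 14 reads behind each value of the 10 genes. The gene carried by the plasmids is not analysed here.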

Additional observations from a re-analysis of the deposited data

Results flagged for a closer look

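The effect of p53 O6-meG against pGFP differed between 6 h and 24 h, by the test of the change itself in edgeR's quasi-likelihood fit, for 7 of the 10 genes. On the log2 scale the change was 1.27 for DISP1, 0.61 for URB1, −0.95 for ARAP2, −1.73 for SOWAHA, −0.45 for USP11, −1.21 for VWA5A and −0.52 for TMTC2.

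The 2 libraries at 6 h that were left without a group showed p53 target levels above those of pGFP to different degrees. CDKN1A had 50.1 CPM in the library whose title begins with TM and 249.6 CPM in that whose title begins with O6-meG. MDM2, the ubiquitin ligase gene that p53 switches on, had 300.8 and 1178 CPM in the same libraries, where pGFP had 182.3 to 208.3 CPM, WT 1241 to 1361 CPM, the O6-meG libraries with a group 1155 and 971.4 CPM and those of TM 286.1 and 348.4 CPM. In both genes each library was nearer to the group that its title begins with than to the group of its genotype field. Their groups were not reassigned from these values.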

How the results depend on the processing

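No called value of the 10 genes reversed under any alternative run. The count of 1 gene for O6-meG against pGFP at 6 h went to 0 with every gene of at least 1 count tested, with both conflicting libraries placed by the genotype field, and with both placed by the start of the title, and lay between 0 and 1 with libraries left out one at a time; the cause was not tested. Over the same omissions the counts were 9 to 10 for O6-meG at 24 h, 6 to 8 for its change between the times, 6 to 8 for pGFP over time and 0 for RW. The median size of the difference of TM against WT over the 10 genes was 0.70 (log2), and 0.63 to 0.75 with libraries left out. Where a group of 2 libraries lost 1, the other was assumed to vary like the other groups. The replicate block, set at both times, raised the count for the change from 7 to 9 and changed no other call of the 10 genes. Over all genes it raised the calls for the change from 1347 to 3925 and for O6-meG at 6 h from 1035 to 3679. Placement by the genotype field lowered the latter to 73. The calls for the change were 395 without O6-meG replicate 3 at 6 h, 769 without O6-meG replicate 1 at 24 h and 879 without pGFP replicate 1 at 24 h, and those for O6-meG at 6 h 689 without pGFP replicate 3. Depth limits SOWAHA most, with 14 to 101 reads per library.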
